A study of Mus musculus with 8 samples.

Results

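The insulin-like growth factor (IGF) axis was described here by 10 genes chosen by name from the 16397 genes of the count table. They were the ligands Igf1 and Igf2, the receptors Igf1r, Igf2r and Insr, the binding proteins Igfbp2, Igfbp3, Igfbp4 and Igfbp5, and the RNA-binding protein Igf2bp1. All 10 were in the table and all 10 passed the count filter. RNA was sequenced from embryonic day (E) 15.5 hippocampi of C57Bl/6J mice in 4 IUGR and 4 sham libraries. The study used hippocampi of both sexes, and the labels do not give the sex of a library, so sex could not enter the fit. For intrauterine growth restriction (IUGR), the dam received a micro-osmotic pump with U-46619, a thromboxane A2 analog that raises maternal blood pressure, at E12.5. The sham dam received a pump with vehicle at the same age, so surgery and a pump were common to both groups. The question put to these data was whether transcripts of the fetal growth factor axis differed between the IUGR and the sham hippocampus.

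IGF1 and IGF2 are secreted growth factors that act mainly through the IGF1 receptor, a tyrosine kinase related to the insulin receptor, while the IGF2 receptor takes IGF2 up for degradation in lysosomes. Secreted IGF binding proteins hold the ligands outside the cell and set how much of them reaches the receptors. In the embryonic brain, IGF2 and IGFBP2 are well known products of the choroid plexus, and IGF2 is also made by the meninges and blood vessels.

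The libraries are named here by their titles, T1-1, T1-3, T1-4 and T1-5 for IUGR and S1-4, S1-6, S3-1 and S3-4 for sham. All IUGR titles begin with T1, and what the letters and first digits stand for is not stated, so title prefix and group cannot be told apart. The labels do not say whether a library came from 1 embryo, or from how many dams, and the p-values measure the spread between these libraries. Total counts ranged from 12919546 to 16672463 in IUGR and from 11212632 to 15405748 in sham. Zbtb20 and Prox1, transcription factors of the hippocampal field, were detected in every library, at 293 to 813 and 24.0 to 59.2 CPM, which are counts scaled to a common library size. The markers of choroid plexus epithelium, which borders the embryonic hippocampus, had summed CPM of 90.1 to 1403 over the IUGR libraries, against 5800 to 12496 over sham. T1-3 stood apart by its meningeal fibroblast markers, which summed to 3061 CPM against 93.3 to 885 CPM in the other 3 IUGR libraries and 351 to 694 CPM in sham. Of 13707 protein-coding genes tested, 186 were called lower and 14 higher in IUGR. A call needed an expression difference of 1 log2 unit or more together with a Benjamini-Hochberg adjusted p no higher than 0.05 in the edgeR quasi-likelihood test.

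Among the 10 genes of the axis, Igfbp2 was called, lower in IUGR, and none of the other 9 was. Igfbp2 encodes a secreted protein that binds both IGFs. Of all genes tested, 1.46% were called in either direction and 1.36% were called lower. Igfbp2 was also the single member with an unadjusted p under 0.05, against 11.1% of all genes tested, and the single member whose IUGR and sham values did not overlap, against 7.14% of all genes tested. The median log2 fold change of the 10 genes was -0.05, beside -0.02 over all genes tested. With 1 gene called, the count says nothing of the axis as a group.

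**Figure D1:**
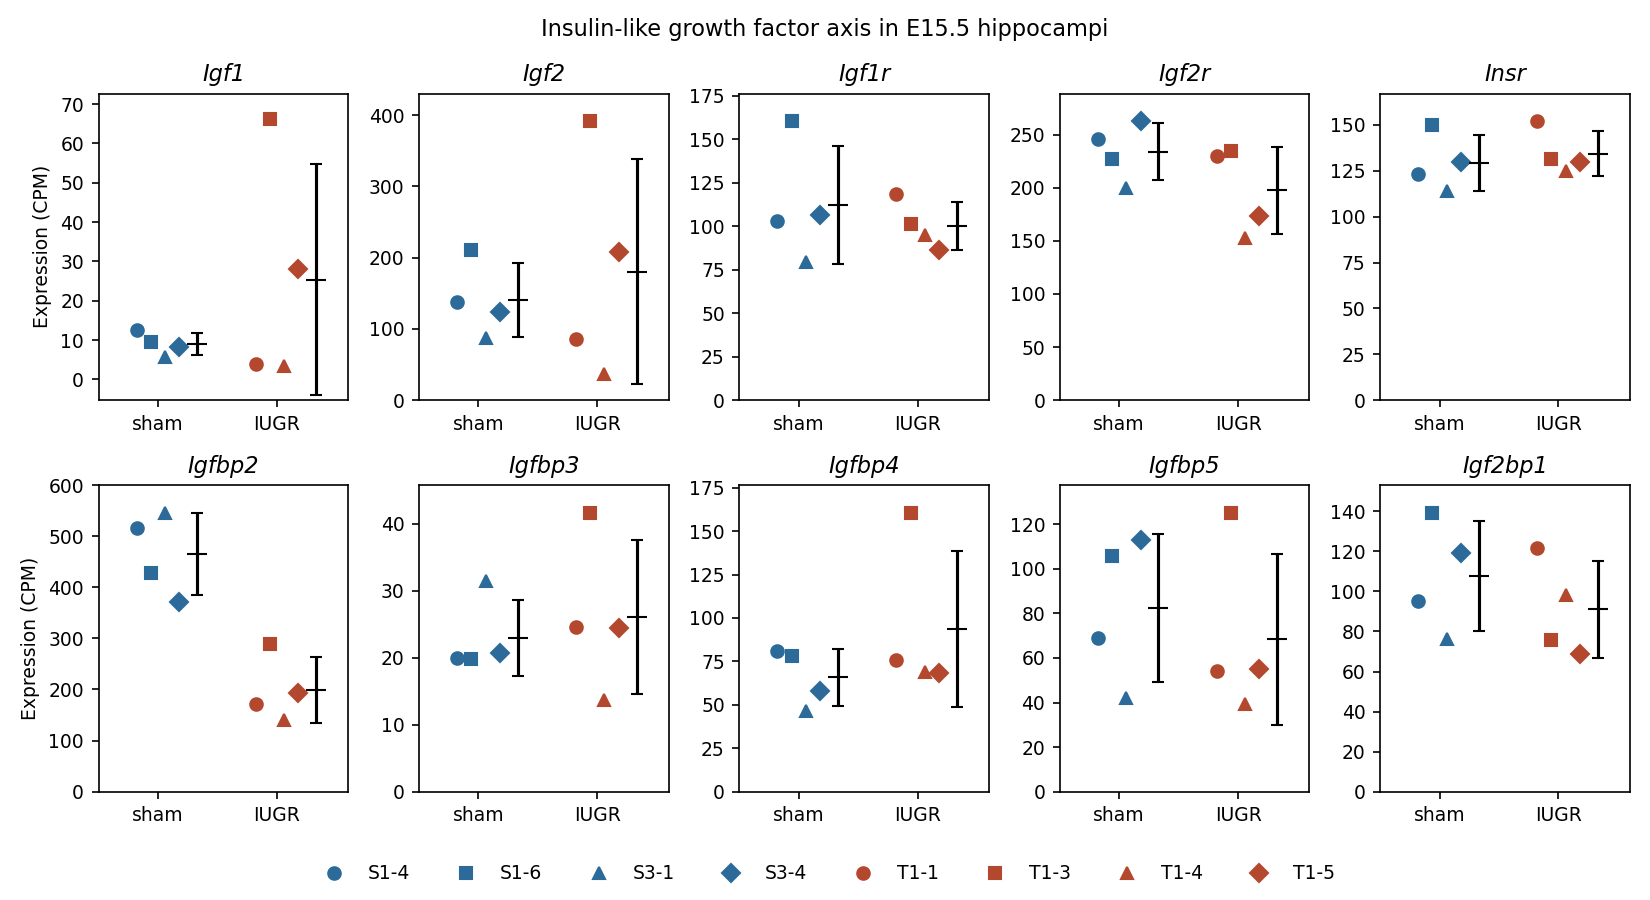
Expression in CPM (vertical axes, linear, one scale per gene) of the 10 genes in the 4 sham (blue) and 4 IUGR (red) libraries. Each symbol is 1 library and the black bars show the mean and SD of each group. Igfbp2 lies between 372 and 546 CPM in sham and between 141 and 289 CPM in IUGR, and T1-3 (red square) holds the highest value of all 8 libraries for Igf1, Igf2, Igfbp3, Igfbp4 and Igfbp5.

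Igfbp2 (ENSMUSG00000039323) lies on the plus strand of chromosome 1 at chr1:72824503-72852474 (GRCm38). Its 3′ end faces that of Igfbp5, on the minus strand at chr1:72857932-72874884, with 5457 bases between them. The promoters of these neighbouring binding protein genes are shown because one of the pair was called and the other was not. The sequences are those of RefSeq on GRCm38.p6, from 250 bases before to 50 bases after the transcript start, read 5′ to 3′ along the gene, with chr1:72824230-72824529 (plus strand) for Igfbp2 and chr1:72874816-72875115 (minus strand) for Igfbp5. Capitals mark matches on either strand to the letters GGGCGG of the GC box, the letters TATAAA found near many transcript starts and the letters CACGTG of the palindromic E box.
Igfbp2: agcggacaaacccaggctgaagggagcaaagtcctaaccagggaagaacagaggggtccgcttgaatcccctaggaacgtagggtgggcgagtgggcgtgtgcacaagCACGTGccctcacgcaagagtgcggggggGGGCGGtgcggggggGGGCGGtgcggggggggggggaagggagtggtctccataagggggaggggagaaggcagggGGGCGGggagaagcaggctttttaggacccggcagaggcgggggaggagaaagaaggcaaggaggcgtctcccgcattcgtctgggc
Igfbp5: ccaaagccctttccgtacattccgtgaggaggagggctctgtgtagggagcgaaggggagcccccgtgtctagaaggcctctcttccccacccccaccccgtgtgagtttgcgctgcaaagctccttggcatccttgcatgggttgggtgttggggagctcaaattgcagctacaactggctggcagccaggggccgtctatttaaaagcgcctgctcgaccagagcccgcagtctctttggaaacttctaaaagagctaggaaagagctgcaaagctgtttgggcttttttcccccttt
The Igfbp2 promoter held 3 GC box matches and 1 E box match and no match to TATAAA. The Igfbp5 window held none of the 3 motifs. Of 32544 promoters of the same length, 35.9% held GGGCGG, 13.6% held TATAAA and 7.17% held CACGTG. The GC content was 67.0% for Igfbp2 and 56.3% for Igfbp5, with a median of 53.0% over all promoters. A match describes the letters of the window and is not evidence that a factor binds there.

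Igfbp2 measured 171 CPM in T1-1, 289 CPM in T1-3, 141 CPM in T1-4 and 193 CPM in T1-5. In sham it measured 516 CPM in S1-4, 427 CPM in S1-6, 546 CPM in S3-1 and 372 CPM in S3-4. Every IUGR library was thus below every sham library, and the closest pair was T1-3 and S3-4. The means were 199 ± 64.1 CPM in IUGR and 465 ± 80.1 CPM in sham (SD, n = 4 each). Igfbp2 fell by 1.23 on the log2 scale (SE 0.22), so that the sham mean was 2.34 times the IUGR mean (edgeR quasi-likelihood test, Benjamini-Hochberg adjusted p = 0.0257). In bulk RNA, fewer cells of a type and less RNA per cell cannot be told apart. Between 1675 and 6955 reads lay behind each of these values, so counting error was small beside the spread between libraries.

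The direction for Igfbp2 held in every alternative fit, with log2 fold changes from -1.58 to -0.95, but its call rested on the libraries included and on the count filter. The number of calls over all genes, 200 in the main fit, moved with these choices too. With all 8 libraries and a mean count of at least 50, the log2 fold change was -1.19 (edgeR quasi-likelihood test, Benjamini-Hochberg adjusted p = 0.0530). That fit called 73 of 11907 genes. When 1 library was left out in turn, Igfbp2 remained past the threshold without T1-3, T1-5 or S1-6 and was lost without T1-1 (edgeR quasi-likelihood test, Benjamini-Hochberg adjusted p = 0.0746), T1-4 (0.0536), S1-4 (0.119), S3-1 (0.0697) or S3-4 (0.0533). Calls over all genes numbered 212, 302 and 127 without T1-3, T1-5 and S1-6. They numbered 67, 113, 24, 102 and 59 without T1-1, T1-4, S1-4, S3-1 and S3-4. Against the S1 sham libraries alone the log2 fold change was -1.23 (adjusted p = 0.151), and against the S3 sham libraries alone it was -1.15 (adjusted p = 0.197), in fits by the same edgeR test and adjustment. Those fits called 0 of 13723 and 2 of 13719 genes, so almost no gene passed there.

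Markers of choroid plexus epithelium moved with Igfbp2. All 15 of the tested markers, of 17 in the list, had lower values in IUGR, 5 were called lower, and their median log2 fold change was -3.07. None of the 17 was at 0 in any library. Transthyretin (Ttr), the main secreted product of this epithelium, measured 25.4, 966, 10.2 and 594 CPM in T1-1, T1-3, T1-4 and T1-5, and 4550 to 10851 CPM in sham. Igfbp2 had the same order within the IUGR libraries as Ttr and as the summed markers, with T1-3 highest, then T1-5, T1-1 and T1-4. Ttr supplied most of the sum in T1-3 and T1-5, so Ttr and the sum are not separate measures. Single markers differed in this order. Clic6 was higher in T1-5 than in T1-3 (71.3 against 54.9 CPM), while Aqp1 was higher in T1-3 (29.4 against 12.2 CPM). In T1-4, where the summed markers were at 90.1 CPM, Igfbp2 was still at 141 CPM. The summed neuron markers were higher in each IUGR library (6176 to 6785 CPM) than in sham (4528 to 5625 CPM), with none of the 14 called. The part of the tissue's cell makeup in the Igfbp2 difference was not tested.

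**Figure D2:**
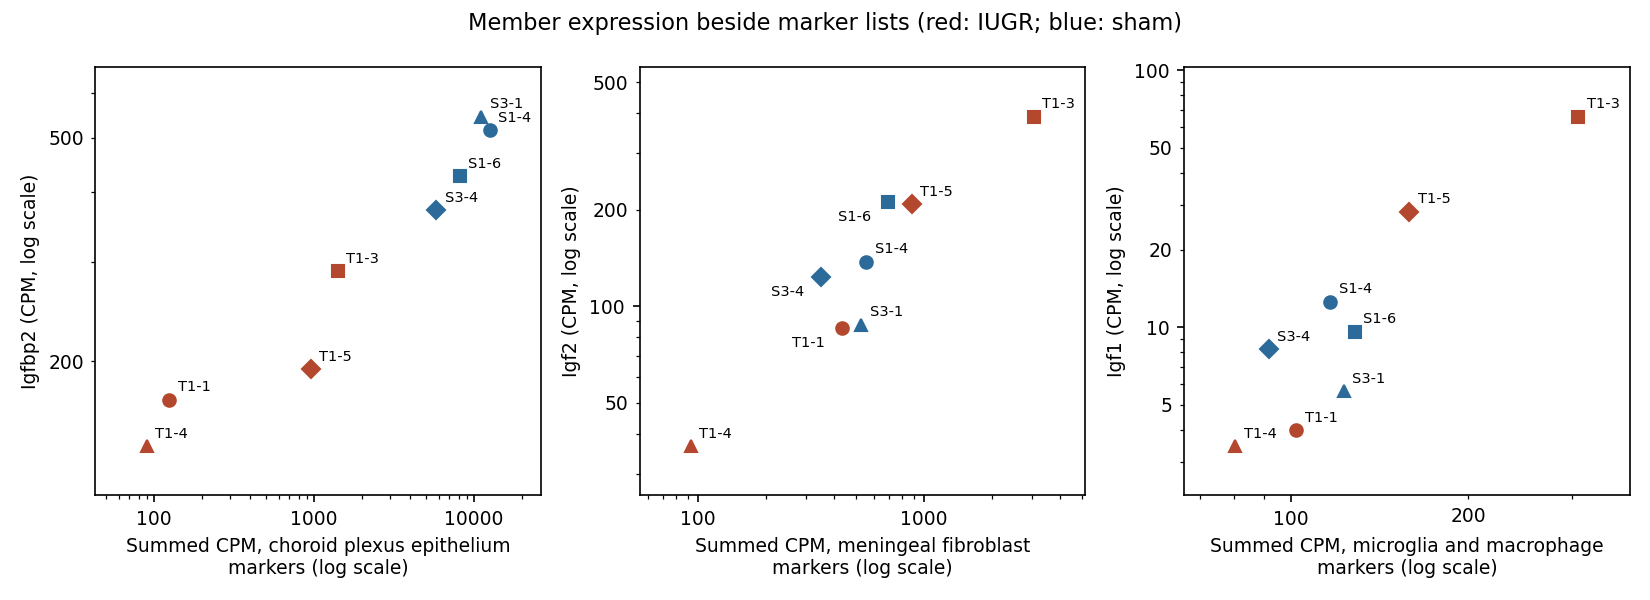
Expression of Igfbp2, Igf2 and Igf1 (vertical axes, CPM, log scale) against the summed CPM of the markers of choroid plexus epithelium, meningeal fibroblasts, and microglia and macrophages (horizontal axes, log scale). Each point is 1 library, blue for sham and red for IUGR. In all 3 panels the IUGR libraries run in the same order, from T1-4 through T1-1 and T1-5 to T1-3, and since the 3 genes and the 3 marker lists all share that order, any pairing of them would show it.

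Levels can be compared between genes only per length of transcript. In sham, Igfbp2 had the highest level of the 10 genes, at 252 ± 43.4 CPM per kilobase of exon (SD, n = 4). It was followed by Igf2r at 25.1 ± 2.88, Igf2 at 24.5 ± 9.08, Igfbp4 at 14.9 ± 3.73 and Igfbp5 at 13.7 ± 5.51 CPM per kilobase. Igf2bp1 (11.1 ± 2.83), Insr (9.41 ± 1.1), Igfbp3 (7.34 ± 1.81) and Igf1r (6.69 ± 2.03 CPM per kilobase) came next, and Igf1 was lowest at 0.91 ± 0.29 CPM per kilobase. Neighbours in this order differed beyond their ranges at its ends, between Igfbp2 and Igf2r and between Igf1r and Igf1, while all other neighbouring pairs overlapped. The order inside those ends depended on the length used. Per kilobase of the longest transcript, Igf2 (29.6 CPM) was above Igf2r (26.3), Insr (13.8) was above Igfbp5 (13.7) and Igf2bp1 (12.8), and Igf1r (9.84) was above Igfbp3 (9.49). In IUGR the level of Igfbp2 was 108 ± 34.7 CPM per kilobase, still the highest mean of the 10, and that of Igf2 was 31.5 ± 27.6 CPM per kilobase.

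The ligands differed more among the IUGR libraries than between the groups. Igf1 (ENSMUSG00000020053, chr10:87858265-87937042, plus strand), the growth factor that in the brain acts on progenitors, neurons and glia, measured 3.97 CPM in T1-1, 66.1 CPM in T1-3, 3.46 CPM in T1-4 and 28.1 CPM in T1-5. In sham, Igf1 measured 12.6, 9.61, 5.65 and 8.20 CPM in S1-4, S1-6, S3-1 and S3-4. T1-3 and T1-5 thus lay above every sham library, and T1-1 and T1-4 lay below every sham library. The highest IUGR library was 19.1 times the lowest, against 2.23 times in sham. The group means of 25.4 ± 29.5 and 9.01 ± 2.89 CPM (SD, n = 4 each) gave a log2 fold change of 1.50 (SE 0.79), which did not pass the test (edgeR quasi-likelihood test, Benjamini-Hochberg adjusted p = 0.592). The log2 fold change of Igf1 was 0.42 without T1-3, and 0.67 with limma-voom on all 8 libraries.

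Igf2 (ENSMUSG00000048583, chr7:142650766-142666816, minus strand), the main fetal growth factor of the family and expressed from the paternal allele in most tissues, had the same order of the IUGR libraries as Igf1. It measured 85.4 CPM in T1-1, 391 CPM in T1-3, 36.7 CPM in T1-4 and 208 CPM in T1-5. The sham libraries measured 138, 211, 87.7 and 123 CPM in S1-4, S1-6, S3-1 and S3-4. T1-3 was above the sham range, T1-5 was inside it, and T1-1 and T1-4 were below it. The means were 180 ± 158 CPM in IUGR and 140 ± 52.0 CPM in sham (SD, n = 4 each), with a log2 fold change of 0.37 (SE 0.58; edgeR quasi-likelihood test, Benjamini-Hochberg adjusted p = 1.00). The log2 fold change of Igf2 was -0.33 without T1-3 and -0.066 with limma-voom on all 8 libraries, so its direction depended on 1 library and on the method.

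Marker lists of several cell types moved with both ligands across the IUGR libraries. Of the 13 lists, 6 had the same order of the IUGR libraries as Igf1 and Igf2: those of choroid plexus epithelium, meningeal fibroblasts, microglia and macrophages, erythroid cells, Cajal-Retzius cells and thalamus. The summed choroid plexus markers, given above, thus had the order of the ligands within IUGR as well as that of Igfbp2. That sum was mostly Ttr in T1-3 and T1-5, and single markers of the list differed in their order. Summed erythroid markers were 1779, 2145, 660 and 1884 CPM in T1-1, T1-3, T1-4 and T1-5, against 1068 to 1633 CPM in sham, so that 3 IUGR libraries lay above and T1-4 below every sham library. Those of Cajal-Retzius cells were 755, 1306, 516 and 759 CPM, against 339 to 949 CPM in sham. T1-1 and T1-5 were nearly tied for Cajal-Retzius cells and for thalamus (62.9 and 65.0 CPM), so the order of these lists is loose there. The summed markers of meningeal fibroblasts were 435, 3061, 93.3 and 885 CPM in T1-1, T1-3, T1-4 and T1-5, and 15 of these 16 genes were highest in T1-3 of all 8 libraries. Those of microglia and macrophages were 102, 308, 80.4 and 159 CPM in the same libraries, against 91.5 to 128 CPM in sham, and 11 of 12 were highest in T1-3. None of the genes in either list was called, and none of the meningeal markers was at 0 in any library. Col1a1, a fibrillar collagen of fibroblasts, measured 74.7, 340, 15.3 and 143 CPM in T1-1, T1-3, T1-4 and T1-5, against 37.3 to 121 CPM in sham. Mrc1, a receptor of macrophages at the borders of the brain, measured 23.2, 111, 4.04 and 48.7 CPM in the same libraries, against 15.0 to 24.2 CPM in sham. Mrc1 was chosen after its values were seen, and it supplied most of the gap between T1-1 and T1-4 in the summed list, where 6 of the 12 genes were higher in T1-4 than in T1-1 (C1qa, a complement gene of microglia, at 10.4 against 6.29 CPM). What part any of these cells had in the ligand values was not tested.

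Igf2 and Igf2r overlap transcripts of the opposite strand in their exons, as do Igf1 (Igf1os) and Igf2bp1 (Gm29202), and whether the counting used strand is not given in the sources used here. Igf2os, which overlaps Igf2, measured 0.42 to 5.10 CPM, and Airn, which overlaps Igf2r, measured 1.04 to 4.71 CPM, so both were low beside the member they overlap. Igf2os was highest in T1-3, as Igf2 was. Igf1os, Gm29202 and Gm49394, a protein-coding gene annotated on the same strand over Igf2 exons, were not analysed here, so reads shared with them cannot be told apart from those of the member. H19, the maternally expressed noncoding RNA next to Igf2, measured 382, 778, 320 and 558 CPM in T1-1, T1-3, T1-4 and T1-5, the same order as Igf2, and 285 to 717 CPM in sham.

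The genes whose pattern over the 8 libraries was most like that of Igf1, by Pearson's r of log2 CPM, were Tmem64 (r = 0.978), Nfam1 (r = 0.970) and Tbx15 (r = 0.967). For Igf2 they were Wnk4 (r = 0.982), Rassf8 (r = 0.978) and Lox (r = 0.974). For Igfbp2 they were Pdlim4 (r = 0.990), Pon1 (r = 0.989) and Gdf5 (r = 0.985), and Gdf5, a BMP family ligand, measured 1.01 to 5.96 CPM over the IUGR libraries against 11.7 to 21.9 CPM over sham. Pon1 was low, at 0 to 0.43 CPM over IUGR and 1.71 to 4.47 CPM over sham. Wnk4 was low too, at 0 CPM in T1-4 and at most 5.04 CPM, so the prior count weighed on both patterns. These values describe 8 libraries of 2 groups that also differ in cell type markers, and 93, 109 and 279 of the genes tested reached an r of 0.9 with Igf1, Igf2 and Igfbp2.

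None of the 3 receptors passed the test. Igf1r (ENSMUSG00000005533, chr7:67952827-68233668, plus strand), the signaling receptor for both ligands, ranged from 86.3 to 118 CPM in IUGR and from 79.6 to 160 CPM in sham, with a log2 fold change of -0.16 (SE 0.20). The IUGR values of Igf1r lay entirely inside the sham range. Igf2r (ENSMUSG00000023830, chr17:12682406-12769664, minus strand), the clearance receptor, measured 152 to 235 CPM over the IUGR libraries, against a sham range of 200.3 to 263 CPM, with T1-4 and T1-5 below the sham range and a log2 fold change of -0.24 (SE 0.16) that was -0.14 without T1-4. Insr (ENSMUSG00000005534, chr8:3122061-3279617, minus strand), the insulin receptor, measured 125 to 152 CPM over IUGR, against a sham range of 114 to 149.8 CPM, with means of 134 ± 12 and 129 ± 15.1 CPM (SD, n = 4 each). Its log2 fold change of 0.06 had the smallest standard error of the 10 genes (SE 0.12). Among the IUGR libraries the coefficient of variation of CPM was 13.6% for Igf1r, 20.7% for Igf2r and 8.93% for Insr, against 116% for Igf1 and 87.6% for Igf2.

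**Figure D3:**
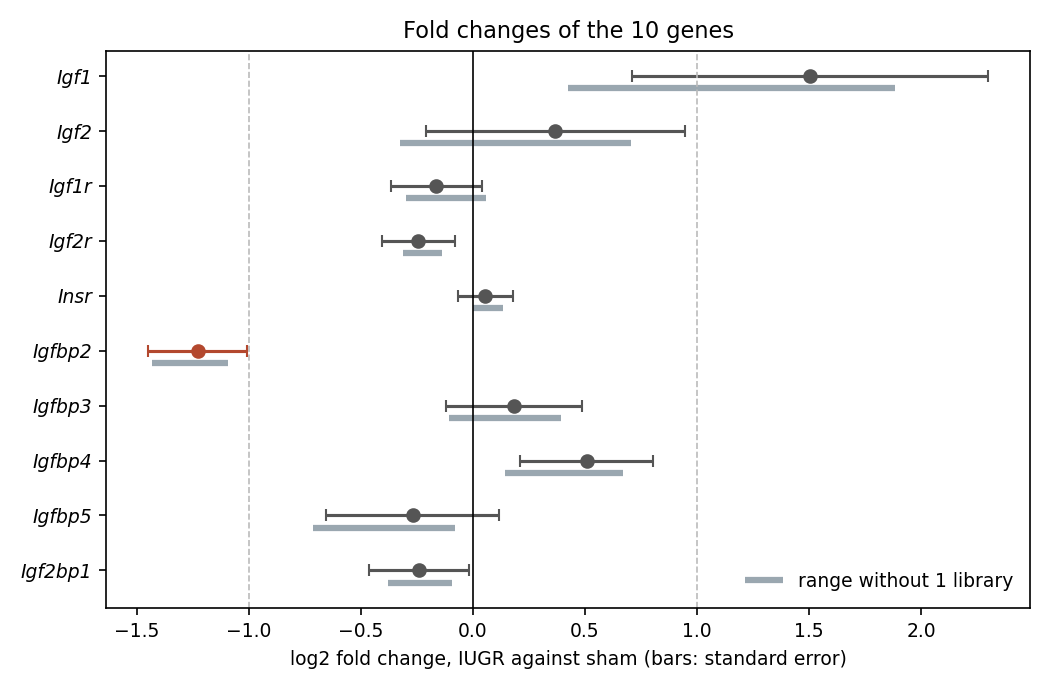
Log2 fold change of IUGR against sham (horizontal axis) for each of the 10 genes, from the edgeR fit. Points with thin bars are the estimate ± its standard error, thick grey bars span the estimates when each of the 8 libraries was left out in turn, and dashed lines mark a log2 fold change of 1 in either direction. Igfbp2 (red) is the gene called, at -1.23, and the grey bars of Igf1r, Igf2 and Igfbp3 cross 0.

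The remaining binding proteins did not pass the test. Igfbp4 (ENSMUSG00000017493, chr11:99041244-99054392, plus strand), which binds IGFs and is cut by the protease PAPP-A, measured 75.9, 160.5, 68.9 and 68.5 CPM in T1-1, T1-3, T1-4 and T1-5, and 46.6 to 81.0 CPM in sham. Its log2 fold change was 0.51 (SE 0.30; edgeR quasi-likelihood test, Benjamini-Hochberg adjusted p = 0.679), with T1-3 above and the other 3 IUGR libraries inside the sham range, and it was 0.15 without T1-3. Igfbp3 (ENSMUSG00000020427, chr11:7206086-7213923, minus strand), the main carrier of IGFs in adult serum, measured 24.5, 41.6, 13.7 and 24.4 CPM in the IUGR libraries in the same order, and 19.7 to 31.5 CPM in sham. Its IUGR values reached beyond the sham range at both ends, and the log2 fold change was 0.18 (SE 0.30). Igfbp5 (ENSMUSG00000026185), a binding protein that also attaches to extracellular matrix, measured 54.0, 125, 39.4 and 55.1 CPM in the IUGR libraries, with a sham range of 42.1 to 113 CPM, with a log2 fold change of -0.27 (SE 0.39) that was -0.71 without T1-3 and -0.08 without T1-4.

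Igf2bp1 (ENSMUSG00000013415, chr11:95957163-96005940, minus strand), an RNA-binding protein of embryonic tissue that binds Igf2 mRNA among others, measured 122 CPM in T1-1, 75.5 CPM in T1-3, 98.1 CPM in T1-4 and 68.6 CPM in T1-5. In sham it measured 76.4 to 139 CPM, so that T1-3 and T1-5 lay below the sham range and the others inside it. The log2 fold change was -0.24 (SE 0.22; edgeR quasi-likelihood test, Benjamini-Hochberg adjusted p = 0.960), from -0.38 without T1-1 to -0.09 without S1-6. Igf2bp1 thus had its lower IUGR values in the libraries where Igf1 and Igf2 had their higher ones.

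T1-3 was the highest of the 4 IUGR libraries for 7 of the 10 genes and the highest of all 8 for 5 of them, and T1-4 was the lowest IUGR library for 7. The coefficient of variation among IUGR libraries had a median of 38.3% over the 10 genes, against 18.0% over all genes tested. Among sham libraries it was 25.3% against 18.1%. The largest was that of Igf1 in IUGR, at 116%, against 32.1% in sham.

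The share of Igfbp2 among the binding protein transcripts was lower in each IUGR library than in any sham library. Each gene's share was taken of the summed CPM per kilobase of Igfbp2, Igfbp3, Igfbp4, Igfbp5, Igfbp6 and Igfbp7 in the same library, a value that does not depend on the scaling between libraries. Igfbp7 is a secreted relative of the family with weak IGF binding, and Igfbp6 is a binding protein that prefers IGF2. Igfbp2 made up 62.4%, 62.3%, 62.1% and 67.5% in T1-1, T1-3, T1-4 and T1-5, and 80.8%, 79.3%, 86.2% and 79.0% in S1-4, S1-6, S3-1 and S3-4. The 2 groups did not overlap, and the mean share was 17.8 percentage points lower in IUGR, at 63.6 ± 2.61% against 81.3 ± 3.34% (SD, n = 4 each). The exact two-sided permutation test gave p = 0.029, the smallest p that 4 against 4 libraries allow. After Benjamini-Hochberg adjustment over the 6 shares it was 0.0429, a value that rests on 3 other shares reaching the same smallest p in the exact test. Those shares are tied to that of Igfbp2, and with a Bonferroni adjustment over the 6 the exact p of the Igfbp2 share was 0.171, which did not pass. The share is not independent of the level of Igfbp2 given above, since that gene is most of its own denominator, and it adds no separate test of Igfbp2. T1-3, the highest IUGR library for the level of Igfbp2, had the same share of it as T1-1 and T1-4 to within 1 percentage point.

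**Figure D4:**
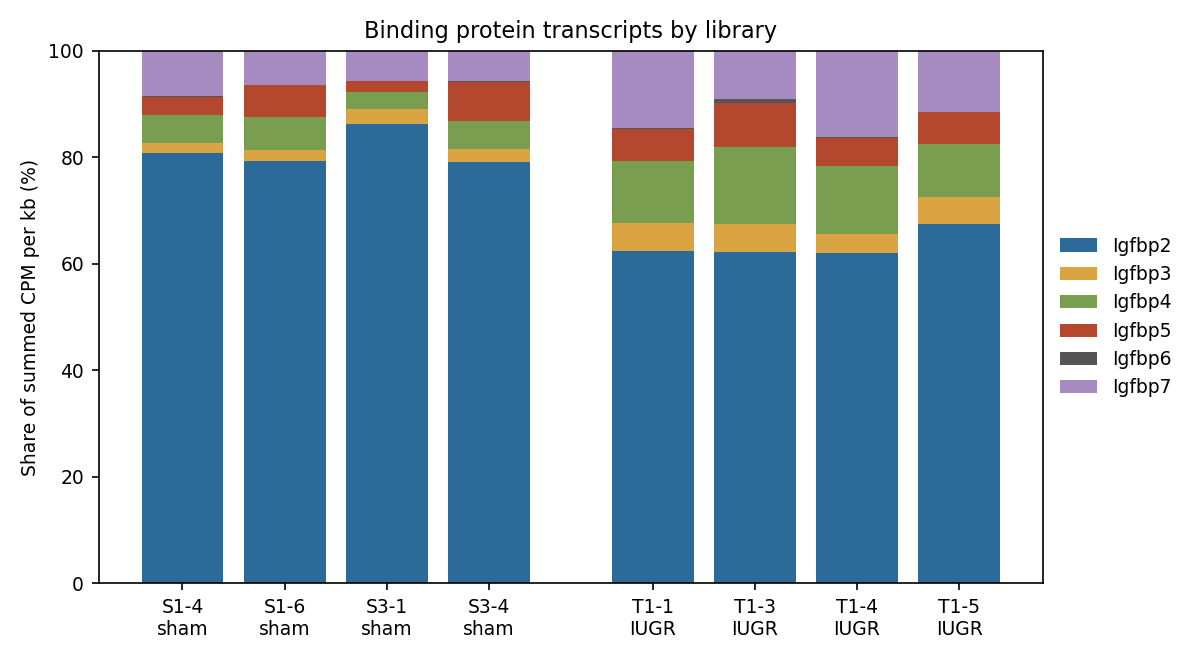
Share of each binding protein gene (vertical axis, percent of the summed CPM per kilobase of the 6 genes) in each library (horizontal axis), with colors for the genes. Igfbp2 (blue) fills 79.0% to 86.2% of each sham bar and 62.1% to 67.5% of each IUGR bar, and Igfbp4 (green) and Igfbp7 (purple) fill more of each IUGR bar than of any sham bar.

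The shares of Igfbp4, Igfbp7 and Igfbp3 were higher in every IUGR than in every sham library. That of Igfbp4 was 12.2 ± 1.87% in IUGR and 4.89 ± 1.27% in sham, that of Igfbp7 12.9 ± 3.14% and 6.58 ± 1.36%, and that of Igfbp3 4.79 ± 0.83% and 2.38 ± 0.48% (SD, n = 4 each). Shares add up to 100 and Igfbp2 is most of the sum, so the other shares tend to be larger where Igfbp2 is lower. Their exact permutation p-values entered the adjustment above (0.029 for these 3, 0.257 for Igfbp5 and 0.971 for Igfbp6, n = 4 each). They are not independent of the Igfbp2 difference, and their values are a description. The levels of Igfbp3, Igfbp4 and Igfbp7 in CPM did not pass the test. Their means in IUGR and sham were 26.1 and 23.0 CPM for Igfbp3, 93.5 and 65.8 CPM for Igfbp4, and 24.9 and 24.9 CPM for Igfbp7. The mean share of Igfbp5 was 1.70 percentage points higher in IUGR, from 0.81 without S3-1 to 2.59 without S3-4. That of Igfbp6, with 1 to 27 counts a library, was 0.068 percentage points higher, but -0.063 without T1-3, so 1 library set its direction. The summed level of the 6 genes was 169 ± 56.5 CPM per kilobase in IUGR and 309 ± 43.8 in sham (SD, n = 4 each), a difference that restates that of Igfbp2, which makes up most of the sum. Without Igfbp2, the sum of the other 5 was 61.9 ± 22.3 and 57.0 ± 8.36 CPM per kilobase (exact permutation p = 0.857, n = 4 each), with overlapping groups. The choroid plexus markers that moved with Igfbp2 (90.1 to 1403 CPM against 5800 to 12496 CPM) moved with its share between the groups too, and the part of cell makeup in the share was not tested.

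Other genes of the IGF pathway were counted in 3 lists, of further ligands, receptors and binding proteins, of genes that set IGF availability or control the axis, and of intracellular signaling. Of the 90 genes listed, 83 were in the table and 79 were tested. None of the 79 was called by edgeR, DESeq2 or limma-voom, and 6 had an unadjusted p under 0.05 in edgeR (7.59%, against 11.1% of all genes tested). The groups did not overlap for 3 of the 79 (3.80%, against 7.14% of all genes tested), and the median log2 fold change was 0.01. Both shares were below the share over all genes tested.

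**Figure D5:**
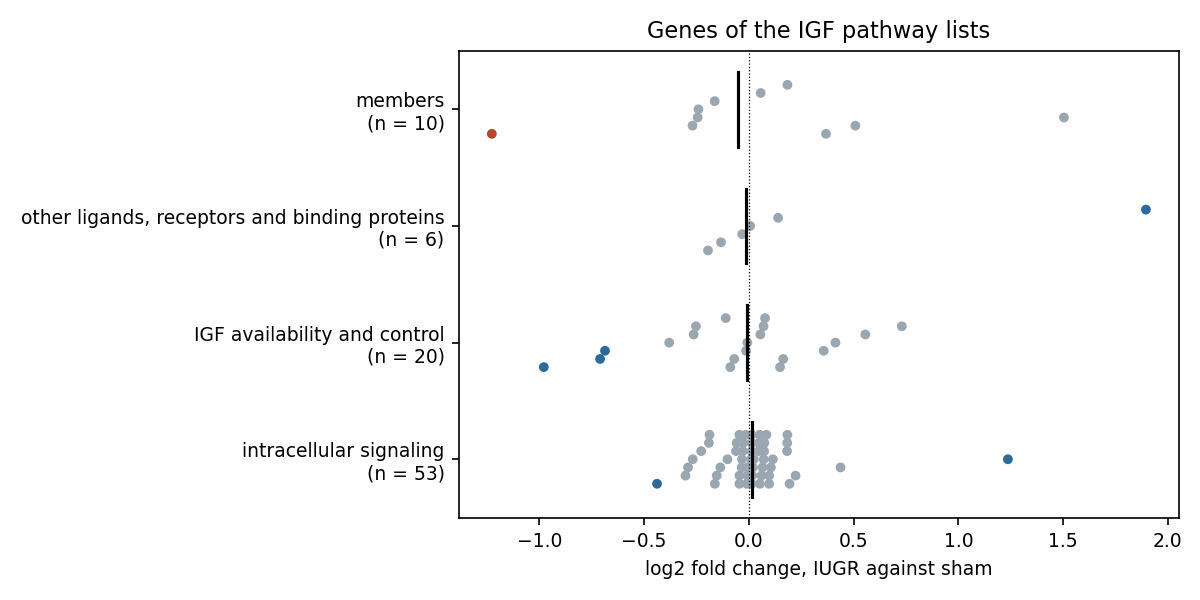
Log2 fold change of IUGR against sham (horizontal axis) of the 10 genes of the axis (members, top) and of the tested genes of 3 other pathway lists. Each point is 1 gene, spread vertically for legibility, and black lines mark list medians. Red is the gene called, Igfbp2, blue points are genes of the other lists with an unadjusted p under 0.05, and the list medians lie between -0.05 and 0.01.

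Among the further ligands, receptors and binding proteins, 6 were tested and 1 had an unadjusted p under 0.05. This was Insrr, an orphan relative of the insulin receptor, with a mean of 2.08 ± 1.60 CPM in IUGR against 0.57 ± 0.24 CPM in sham (SD, n = 4 each), with a log2 fold change of 1.90 (SE 0.61; edgeR quasi-likelihood test, Benjamini-Hochberg adjusted p = 0.204). Insrr was highest in T1-3, at 4.24 CPM, and its mean count was 18.6, so few reads lay behind it. Outside the rule for naming genes, 4 relatives of members were named after their values were seen. Igfbpl1, a binding protein-like gene of newborn neurons, measured 436 ± 71.6 CPM in IUGR and 478 ± 109 CPM in sham (SD, n = 4 each; log2 fold change -0.13). Igfbp7 had equal means of 24.9 CPM, and Igf2bp2 and Igf2bp3, the relatives of Igf2bp1, had log2 fold changes of 0.14 and -0.03.

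Of 20 tested genes that set IGF availability or control the axis, 3 had an unadjusted p under 0.05, all with lower values in IUGR. Socs2, a feedback inhibitor of growth hormone signaling, measured 71.4 ± 9.78 CPM in IUGR and 117 ± 28.1 CPM in sham (SD, n = 4 each), and its groups did not overlap. Its log2 fold change was -0.71 (SE 0.18; edgeR quasi-likelihood test, Benjamini-Hochberg adjusted p = 0.102). Htra1, a secreted protease that cuts binding proteins, measured 39.1 ± 6.43 and 63.0 ± 21.1 CPM (SD, n = 4 each), also without overlap, with a log2 fold change of -0.69 (SE 0.22; adjusted p = 0.202 by the same edgeR test). Pappa2, a protease that cuts IGFBP3 and IGFBP5, measured 13.9 ± 4.42 and 27.4 ± 12.1 CPM (SD, n = 4 each), with a log2 fold change of -0.98 (SE 0.34; adjusted p = 0.239 by the same edgeR test). None of the 3 passed the test after adjustment.

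Of 53 intracellular signaling genes, all tested, 2 had an unadjusted p under 0.05 and the median log2 fold change was 0.01. Irs4, an adaptor of the insulin and IGF1 receptors, had a log2 fold change of 1.24 (SE 0.53; edgeR quasi-likelihood test, Benjamini-Hochberg adjusted p = 0.403). Shc2, an adaptor that couples receptor tyrosine kinases to Ras, had one of -0.44 (SE 0.19; adjusted p = 0.396 by the same edgeR test). Neither had groups without overlap.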

How the data were processed

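Gene counts of 8 libraries were used. The authors made them from single reads of TruSeq Stranded Total RNA libraries (Ribo-Zero Gold, Illumina HiSeq) on mm10 (GRCm38), and deposited them as raw counts per gene. The submitters' processing notes name Novoalign 2.8. The counting program, annotation release and strand setting are not given in the sources used here. Library titles gave each column's sample, and groups came from the labels.

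Protein-coding genes (GENCODE M21) were kept where the count averaged 10 or more, and less than 50000, over the libraries, and were tested with edgeR 4.0.16 in R 4.3.3 (TMM, quasi-likelihood test, Benjamini-Hochberg adjustment over 13707 genes). The standard error is the one implied by the F statistic. Calls required an adjusted p no higher than 0.05 and a difference of 1 log2 unit or more, the thresholds stated by the study. CPM used TMM-scaled library sizes, and levels per kilobase used the union of exons. Patterns were compared on log2 CPM with a prior count of 2. Shares and summed levels were compared by exact permutation in SciPy 1.17.1. The edgeR, DESeq2 and limma-voom steps were tested on simulated counts with known changes.

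The 10 genes were named in full. Of the other pathway genes, those called, or among the 3 largest changes of a list in either direction with an unadjusted p under 0.05, were named, and 4 relatives of members were added after their values were seen. Members, pathway and marker lists were chosen with earlier results of these data known. Alternatives were DESeq2 1.42.0 size factors and Wald test, limma 3.58.1 (voom), other count filters, each library or title prefix left out, and another gene length. Same-group libraries differed by far more than sampling noise (chi-square per degree of freedom 27.2 to 71.8). RefSeq promoters were found for 8 of the 10 genes.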

Additional observations from a re-analysis of the deposited data

Results flagged for a closer look

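In 5 of 32 groups of 4 libraries, 1 library lay far from the other 3, with a gap to its nearest neighbour over the group's range above Dixon's critical value. About 1 in 20 groups would be picked out in this way by chance. For Igfbp4 in IUGR the ratio was 0.920, with T1-3 at 160.5 CPM above the other 3 libraries. For Igfbp3 in sham it was 0.914, with S3-1 at 31.5 CPM above the others. For the share of Igfbp2 in the summed binding proteins of IUGR it was 0.939, with T1-5 highest, at 67.5%. The share of Igfbp3 in IUGR gave 0.848, with T1-4 lowest, and that of Igfbp6 in IUGR gave 0.856, with T1-3 highest on 27 counts.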

How the results depend on the processing

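The number of the 10 genes called was 1 (Igfbp2) with DESeq2 size factors, the DESeq2 Wald test, limma-voom, no filter, or the adjusted p alone. Calls over all genes in these fits were 191, 425, 328, 207 and 213, against 200 in the main fit. The number of the 10 genes called was 0 with a mean count of at least 50 (Igfbp2 adjusted p = 0.0530, edgeR with Benjamini-Hochberg adjustment) and 0 with the sham libraries of S1 alone or of S3 alone. Over all genes, 73, 0 and 2 were called there. With 1 library left out, calls over all genes ranged from 24 to 302, and those among the 10 genes from 0 to 1. Without T1-1 and T1-4, 241 genes were called, 1 of them among the 10, but that gene was Igf1 (log2 fold change 2.39, edgeR with Benjamini-Hochberg adjusted p = 0.0241). The number of other pathway genes called was 1 there (Insrr) and 1 without T1-3 and T1-5 (Mmp2). Igf1 and Insrr are highest, and Mmp2 lowest, in the IUGR libraries kept, so the split fixes these calls and they are a description.

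Igf2r, Igfbp4 and Igfbp2 kept their direction in all 17 alternatives, and Insr, from 0.00045 to 0.19, showed no clear one. Without T1-3 and T1-5, the log2 fold change was -1.27 for Igf1, -1.20 for Igf2, -0.26 for Igfbp3 and 0.033 for Igf2bp1, and without T1-1 and T1-4 it was 0.13 for Igfbp5. For Igf1 and Igf2 the libraries kept are the lowest of IUGR, so the choice fixes these values. For Igf2bp1 and Igfbp5 the libraries kept are the highest of IUGR, so the choice shifts these values upward. Igf2 was at -0.066 with limma-voom, and Igf1r at 0.15 against S3 alone. With 1 library left out, Igf2 ranged from -0.33 to 0.71, Igfbp3 from -0.11 to 0.39 (both lowest without T1-3), and Igf1r from -0.30 to 0.058 (highest without S1-6). The cause of these shifts was not tested. Another measure of gene length, the longest transcript, moved 5 of the 10 levels per kilobase by more than 1 SD and changed their order. Share differences ranged from -19.1 to -16.1 percentage points for Igfbp2 with 1 library left out, and with 3 against 4 libraries the exact test cannot reach 0.05. No paired analysis was possible because the labels give no number that pairs IUGR with sham samples.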
